A study of Arabidopsis thaliana with 14 samples.

Results

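The embryo proper of the Arabidopsis thaliana seed was compared with the 3 regions of the endosperm that surround it, and the genes called different from all 3 regions in the same direction were taken. The comparison rests on 8 of the 14 arrays of the study, 2 each for embryo proper, micropylar, peripheral and chalazal endosperm. The other 6 arrays hold the seed coat, the chalazal seed coat and whole seeds. All groups carry the same genotype, Ws-0, were taken at the mature green stage from plants in continuous light, and had no treatment. Compartments were cut by laser from paraffin sections of fixed siliques, and a few nanograms of RNA were amplified before hybridisation to ATH1 arrays. Both arrays of a group are labelled as biological replicates, with no plant or seed named for either, so p-values measure only the spread between these samples.

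A seed is built from a double fertilisation, which gives rise to an embryo and an endosperm side by side. The embryo becomes the seedling, and in Arabidopsis its cotyledons store protein and oil. The endosperm feeds it and is largely consumed, so that by the mature green stage little more than a thin layer is left. The micropylar part covers the tip of the root, the peripheral part lines the cotyledons, and the chalazal part lies at the end where the mother plant supplies the seed.

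Each array gave an intensity, here called the signal, for 22810 probe sets, of which 14257 were tested. The tested probe sets held 7713 genes with a probe set of their own. Signals under 25 were raised to 25 before log2 was taken, and differences are embryo minus endosperm on that log2 scale, given as the estimate ± SE of limma. A gene was called at an adjusted p under 0.05, adjusted by the Benjamini-Hochberg method over all probe sets of a comparison. Where an array of the lower group lay under 25, the difference is a lower limit. Signals are printed as deposited, replicate 1 before replicate 2. Replicate arrays correlated at 0.907 in embryo, 0.909 in micropylar, 0.93 in peripheral and 0.879 in chalazal endosperm over probe sets, and probe sets are not replicates. Embryo and endosperm arrays correlated at 0.63 to 0.775. Of the tested probe sets, 4.84% to 6.35% lay under 25 on these arrays.

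The labelled compartments were set against marker genes. The signals of 10 measured embryo organ and pattern regulators summed to 7154 to 9699 on the embryo arrays, against 1062 to 1817 on the 6 endosperm arrays. Most of the embryo sums came from STOMAGEN (5110 and 2983) and YAB3 (1978 and 1557). Both were also among the 12 largest differences given below, and sums without them were not taken, so this check rests largely on these genes. Of 13 measured endosperm regulators and markers 11 did not pass the filter on low values, and their sums overlapped, with 564 to 953 in embryo and 427 to 1136 in endosperm. That list did not separate the endosperm arrays from the embryo arrays. The 7 measured seed coat markers summed to 1873 to 2020 in embryo and 3125 to 4074 in endosperm, compared with 9350 to 29060 in the 2 seed coat groups. ARA12 and DELTA-VPE, which are proteases, were the 2 members called lower in embryo than in the mean of the regions. Without them the sums were 1223 to 1602 in embryo and 706 to 1718 in endosperm, and the ranges overlapped. Leaving out the members that differed brings the ranges together, so this overlap is not a separate check. The part of seed coat RNA in the results was not tested.

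The embryo differed from the mean of the 3 endosperm regions in 2319 probe sets (16.3%), of which 1114 (7.81%) were higher and 1205 (8.45%) lower. Its distance depended on the region. Against peripheral endosperm 1362 probe sets (9.55%) were called, 609 higher (4.27%) and 753 lower (5.28%). Against micropylar endosperm 1696 (11.9%) were called, 808 higher (5.67%) and 888 lower (6.23%). Against chalazal endosperm 2656 (18.6%) were called, 1320 higher (9.26%) and 1336 lower (9.37%). Each comparison uses the same embryo arrays. The endosperm regions were also compared with each other. Chalazal endosperm differed from micropylar endosperm in 1107 probe sets (7.76%) and from peripheral endosperm in 790 (5.54%), whereas micropylar and peripheral endosperm differed in 43 (0.302%). Among probe sets higher in embryo than in chalazal endosperm, 703 were called against neither of the other regions. Among those lower than in chalazal endosperm, 678 were called against neither of the other regions.

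All 3 regions were exceeded by the embryo in 337 probe sets (2.36%), which represent 164 genes (2.13%). In 446 probe sets (3.13%), representing 223 genes (2.89%), the embryo lay below all 3. The median log2 difference was 3.44 over the higher genes and -3.14 over the lower ones, against 0.03 over all tested genes. The choice of the genes fixes these medians. Both embryo arrays lay beyond all 6 endosperm arrays in 164 of 164 higher and 223 of 223 lower genes, which the calls nearly fix. The same held for 24.8% of all tested genes and 25.6% of all tested probe sets. In 19 probe sets (0.133%), representing 10 genes (0.13%), the embryo lay between regions. The higher genes nearest the threshold were AT2G04039 inside it, with a largest adjusted p of 0.0499 in limma over the 3 regions, and AT1G35513 outside it, at 0.0501. On the lower side AT5G39785 lay inside (0.048) and AT4G30130 outside (0.0501). The number of higher genes rested on single arrays more than that of lower ones. Without embryo replicate 1, 135 probe sets were higher than all 3 regions, and 132 of them were among the 337. Without embryo replicate 2, 164 were higher, 156 of them among the 337. The lower probe sets numbered 329 and 373 without these arrays. Without peripheral endosperm replicate 1 the higher ones numbered 197, and without replicate 2 they numbered 204. Of 45 named genes higher than all 3 regions, 27 lost that call without embryo replicate 1 and 21 without replicate 2. Of 55 named lower genes 10 and 12 did.

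**Figure D1:**
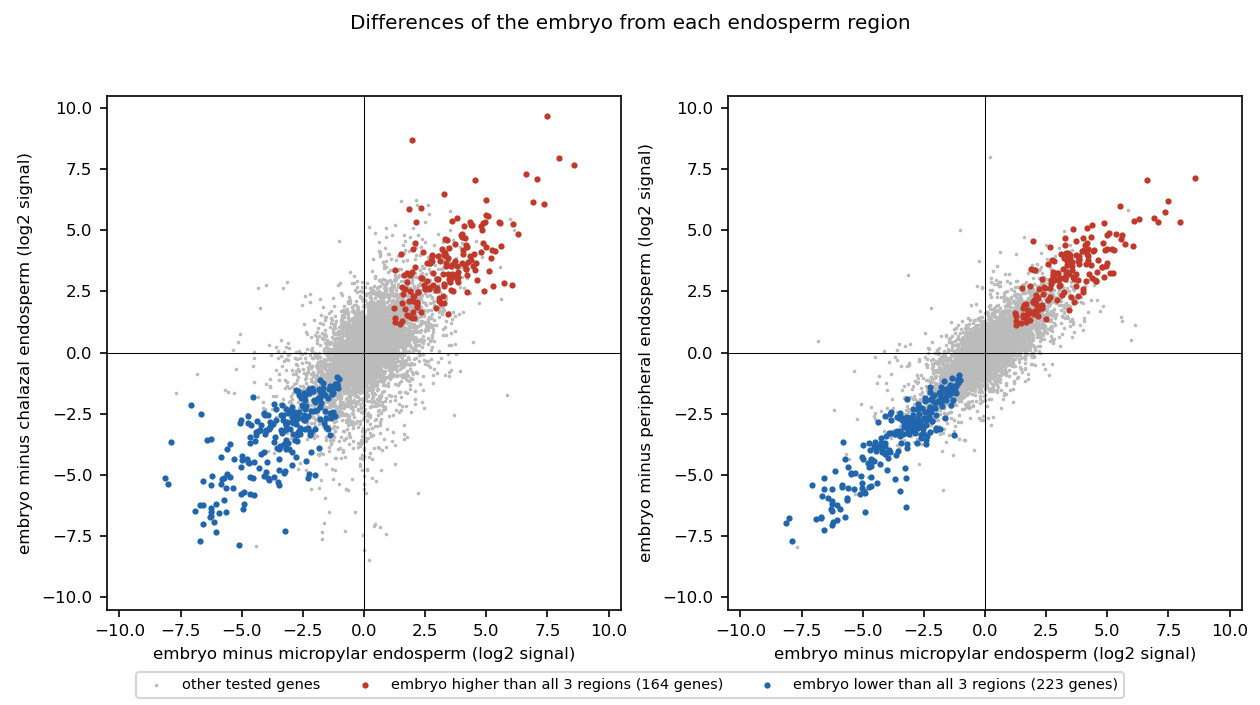
Each point is 1 of 7713 tested genes. The x axes show embryo minus micropylar endosperm, and the y axes embryo minus chalazal (left) or peripheral endosperm (right), all as log2 signal. The 164 genes higher than all 3 regions (red) and the 223 lower than all 3 (blue) lie in opposite corners, and the grey cloud is wider against chalazal than against peripheral endosperm.

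STOMAGEN and YAB3, regulators of stomata and of leaf-like organs, stood among the 12 largest differences of the genes higher than all 3 regions. STOMAGEN (AT4G12970) encodes a secreted signal that raises the number of stomata on leaves. Its signal was 5110.1 and 2983 in embryo, against 61.8 and 2.24 in micropylar, 34.7 and 16.2 in peripheral and 14.7 and 3.15 in chalazal endosperm. The log2 difference from the mean of the regions was 6.99 ± 0.56, at least 127-fold (limma adjusted p = 2.02e-07). SPCH (AT5G53210), the transcription factor that starts the stomatal lineage, gave 104 and 81 in embryo, against 7.74 and 3.22 in micropylar, 22.7 and 31.5 in peripheral and 5.19 and 3.32 in chalazal endosperm. Its embryo signals lay below the medians of those arrays (163 and 144). SPCH thus passed the filter only through a group outside the comparison. SPCH was called against the mean (at least 3.53-fold, limma adjusted p = 0.0452) but not against all 3 regions, and not with either embryo array left out (1.64 and 2.00). YAB3 (AT4G00180), a YABBY factor of the lower side of leaves and cotyledons, gave 1978 and 1557 in embryo, against 16.9 and 26.8 in micropylar, 69.2 and 13.9 in peripheral and 11.4 and 82 in chalazal endosperm. Of these 8 arrays only the embryo arrays were above 100, and the difference was at least 48-fold (5.59 ± 0.71, limma adjusted p = 3.92e-05). SNZ (AT2G39250), a repressor of flowering related to APETALA2, gave 602 and 289 in embryo, against 71.6 and 11.6 in micropylar, 14.5 and 22.2 in peripheral and 10 and 10.2 in chalazal endosperm (3.81 ± 0.59, limma adjusted p = 2.39e-04). SNZ kept the call against all 3 regions in 14 of 17 alternative settings. The call was lost with no floor, without micropylar replicate 2 and without embryo replicate 1, where the difference from the mean was 3.28. In the list of embryo organ and pattern regulators, 7 members were tested, 3 were higher than all 3 regions and 0 lower, beside 2.13% and 2.89% of all genes. The median difference of the 7 was 1.82, and 3 further measured members did not pass the filter on low values. STOMAGEN, YAB3 and SNZ reached at most 82 in endosperm, below the medians of those arrays (134 to 155). Of the compared groups, only the embryo thus let them pass the filter. A lower call was hardly open to them, so these counts are not an even comparison with all genes. The receptor kinase CR4 (AT3G59420), known from the epidermis, did not pass the test (0.36 ± 0.56, limma adjusted p = 0.744), with 832 and 984 in embryo and 494 to 1013 over the endosperm arrays.

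Further single genes higher than all 3 regions were named because they have a symbol. TBL38 (AT1G29050), of a family known for acetylation of wall polysaccharides, had 5959 and 6656 in embryo, against 42 and 53.4 in micropylar, 133 and 177 in peripheral and 53.9 and 38.9 in chalazal endosperm (6.50 ± 0.49, limma adjusted p = 1.16e-07). Its relative TBL37 (AT2G34070) was higher too (609 and 414 in embryo, 3.13 to 70.2 over the 6 endosperm arrays). They were 2 of the 15 TBL genes tested, of which 0 were lower than all 3 regions, beside 2.13% higher and 2.89% lower among all genes. Against the mean 3 TBL genes were higher and 2 lower, and the family's median difference was 0.41. TBL37 was not called against all 3 regions with either embryo array left out. PPDK (AT4G15530), which makes phosphoenolpyruvate from pyruvate and is known from gluconeogenesis in seedlings, gave 689 and 1835 in embryo, against 85.7 and 75.7 in micropylar, 80.3 and 86.3 in peripheral and 4.73 and 3.82 in chalazal endosperm (4.35 ± 0.58, limma adjusted p = 5.70e-05). The embryo arrays differed from each other, but the lower of them was well above all 6 endosperm arrays. ALDH11A3 (AT2G24270), a glyceraldehyde-3-phosphate dehydrogenase of the cytosol, showed a graded pattern, with 4877 and 6055 in embryo, 1149 and 1335 in micropylar, 1069 and 1947 in peripheral and 169 and 108 in chalazal endosperm. Its difference was 2.13 from micropylar, 1.91 from peripheral and 5.33 from chalazal endosperm. The chalazal region itself lay below the micropylar one (-3.20, limma adjusted p = 9.70e-04). ACLA-3 (AT1G09430), a subunit of the ATP-citrate lyase that supplies acetyl-CoA in the cytosol, gave 1006 and 879 in embryo and 14.9 to 201 over endosperm (3.22 ± 0.57, limma adjusted p = 7.93e-04). The call against all 3 regions was kept in 7 of 17 alternative settings for ACLA-3 and in 10 for ALDH11A3. Both genes lost it with either embryo array left out. Their differences from the mean were then 3.12 and 3.32 for ACLA-3 and 3.28 and 2.97 for ALDH11A3.

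Several of the genes most different from the endosperm are named only by their locus in the tables used here, and no role is given to them. AT1G62500 was 1 of the 12 largest differences, with 78556 and 37511 in embryo, against 401 and 233 in micropylar, 1085 and 513 in peripheral and 42.7 and 106 in chalazal endosperm. Whole seeds reached 52545 and 43646, close to the embryo, and the 2 seed coat groups only 27.3 to 461. With all arrays and the floor of 25, AT5G10580 differed most (7.80 ± 0.49, limma adjusted p = 1.83e-08). It gave 12298 and 7290.0 in embryo, against 5.47 and 16.5 in micropylar, 137 and 31.9 in peripheral and 38.4 and 55.3 in chalazal endosperm. Its micropylar arrays lay under the floor, so its size and rank depend on the floor. Without embryo replicate 2 AT1G62500 differed more (8.31 against 8.18). The chalazal seed coat also had a strong AT5G10580 signal of 6457 and 5621. AT1G09750 gave 5489.6 and 7210.4 in embryo, with 13.7 to 295 over the endosperm arrays (7.09 ± 0.51). The remaining 6 of the 12 largest were AT2G36950, AT5G04380, AT4G01130, AT2G23230, AT5G01075 and AT1G23000, and they differed by 5.18 to 6.40. The call against all 3 regions held in 17 of 17 alternative settings for 11 of these 12 genes, and AT5G04380 lost it when no floor was used.

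**Figure D2:**
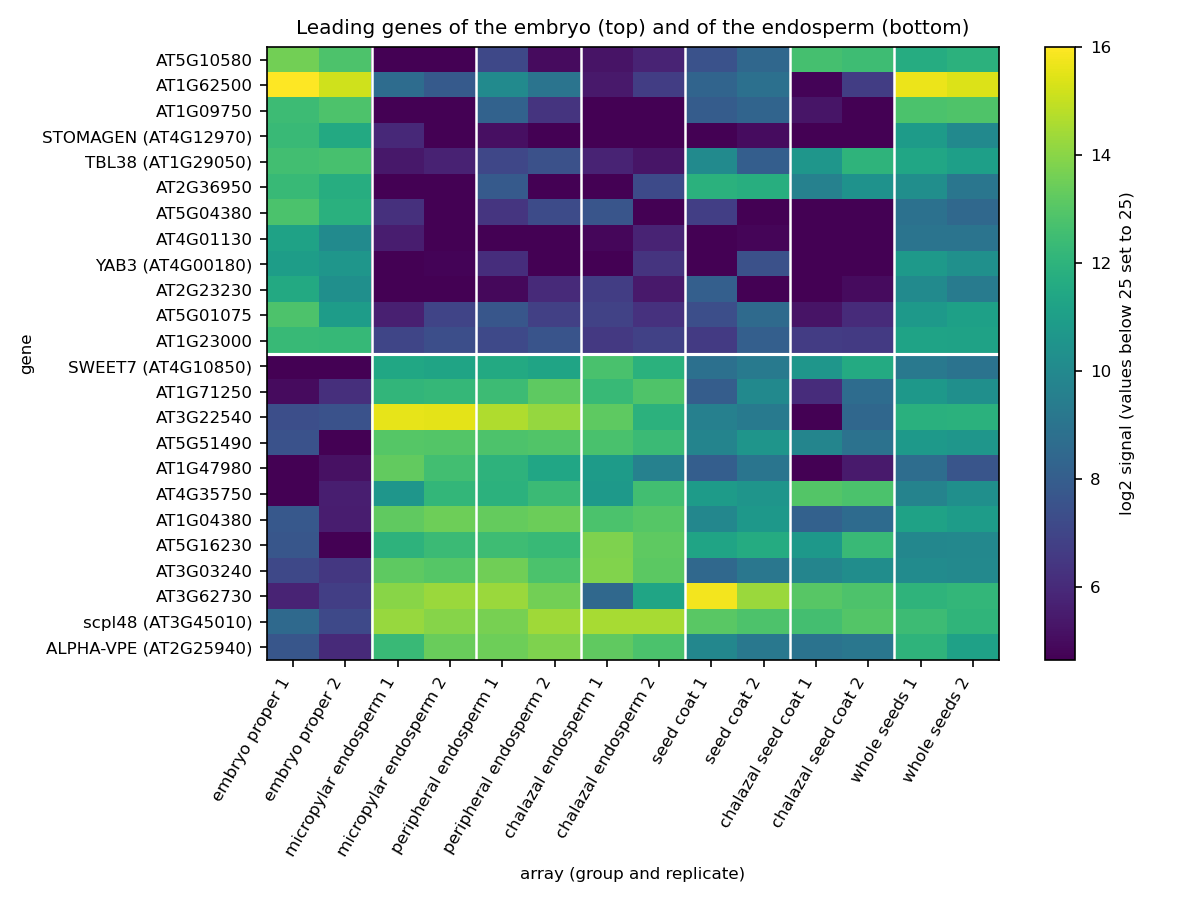
Colours show log2 signal of the 12 genes with the largest (top) and the 12 with the smallest (bottom) embryo minus endosperm difference, 1 column per array. The top genes are bright in the 2 embryo arrays and dark in the 6 endosperm arrays, and the bottom genes the reverse. The 6 arrays at the right are the seed coats and whole seeds.

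Most tested storage protein genes were higher in the embryo than in the mean of the regions, with the widest median gap to the chalazal region. The storage protein list had 6 tested members. Of these, 5 were higher than the mean of the regions and 1 lower, beside 7.45% higher and 7.62% lower among all genes. Their median difference was 0.97 against micropylar, 1.03 against peripheral and 2.45 against chalazal endosperm. Called higher were 2 of the 6 against micropylar, 2 against peripheral and 5 against chalazal endosperm. Of all tested probe sets, 5.67%, 4.27% and 9.26% were called higher in these comparisons. The chalazal region lay below the micropylar one in 3 of the 6 members and below the peripheral one in 4, as called by the same model. PAP85 (AT3G22640), a vicilin-type protein, gave 79666 and 34428 in embryo, against 24113 and 24628 in micropylar, 23394 and 24251 in peripheral and 10404 and 4861 in chalazal endosperm. Both embryo arrays were above all 6 endosperm arrays. Its difference was 1.71 ± 0.33 (limma adjusted p = 0.00168), and 1.10 without embryo replicate 1 (limma adjusted p = 0.102). AT1G03890, of the same list, was higher than all 3 regions with 28487 and 25187 in embryo, against 2421 and 1128 in micropylar, 7384 and 3056 in peripheral and 1756 and 499.8 in chalazal endosperm (3.78 ± 0.52). AT2G28490 was higher as well, at 30193 and 29578 in embryo and 2614 to 17574 over endosperm (1.93 ± 0.24). AT1G07750 went the other way, with 1655 and 1981 in embryo and 4708 to 6775 over endosperm (-1.59 ± 0.23, limma adjusted p = 1.35e-04). With either embryo array left out, fewer of the 6 were called higher than the mean. Neither AT1G03890 nor AT2G28490 was then called against all 3 regions. Without replicate 1 and without replicate 2, their differences from the mean were 3.70 and 3.87 for AT1G03890 and 1.91 and 1.94 for AT2G28490. The list's median was then 1.03 and 1.62, against 1.42 with all arrays.

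Proteins of the oil body and of lipid metabolism followed. The oil body list had 3 tested members, and 3 were higher than the mean of the regions (median 1.7), beside 7.45% of all genes, while 0 were called higher than all 3. OLEO3 (AT5G51210), an oleosin that coats oil bodies, had 88199.8 and 65276 in embryo, against 28178 and 34099 in micropylar, 30529 and 36476 in peripheral and 11668 and 13973 in chalazal endosperm (1.68 ± 0.34, limma adjusted p = 0.0025). Without embryo replicate 1, 0 of the 3 were called, and 1 without replicate 2, while OLEO3 then differed by 1.47 and 1.90. The 2 acyl-ACP thioesterases, which end fatty acid synthesis in the plastid, diverged. FaTA (AT3G25110), which releases mainly unsaturated oleate, gave 6335 and 6549.9 in embryo, against 355 and 766 in micropylar, 1187 and 2021 in peripheral and 678 and 1892 in chalazal endosperm (2.73 ± 0.39, limma adjusted p = 1.16e-04), and with either embryo array left out it was called against the mean but not against all 3 regions. FATB (AT1G08510), which releases mainly saturated fatty acids, gave 406 and 570.1 in embryo, against 1452 and 1328 in micropylar, 1976 and 2016 in peripheral and 816 and 814 in chalazal endosperm. It was lower than the mean (-1.45 ± 0.40, limma adjusted p = 0.0206) but not lower than all 3 regions, and its adjusted p was 0.232 without embryo replicate 1 and 0.0663 without replicate 2. GPDHp (AT5G40610), a plastid enzyme that makes glycerol 3-phosphate for lipids, was higher than all 3 regions, with 39823 and 28404 in embryo, against 6735 to 12606 over endosperm (1.89 ± 0.29, limma adjusted p = 2.13e-04). GPDHp kept that call in 12 of 17 alternative settings. The call was lost without embryo replicate 1, where the difference from the mean was 1.65, and without either peripheral array. Of 4 tested genes of lipid breakdown and gluconeogenesis, 2 were higher than the mean (PPDK and ICL) and 1 lower. Among all genes 7.45% were higher and 7.62% lower than the mean. The lower gene was SDP1 (AT5G04040), the lipase that starts oil breakdown, with 924 and 928 in embryo and 1922 to 4686 over endosperm (-1.45 ± 0.30, limma adjusted p = 0.00307). ICL (AT3G21720), isocitrate lyase of the glyoxylate cycle, gave 3089 and 5459 in embryo, against 1620.1 and 386 in micropylar, 2701 and 562 in peripheral and 495 and 374 in chalazal endosperm (2.46 ± 0.62, limma adjusted p = 0.0114), and its adjusted p was 0.0541 and 0.17 with either embryo array left out.

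Genes of the late embryogenesis abundant (LEA) type, whose proteins protect cells during drying, moved in both directions. Of 19 tested members 9 were higher than the mean of the regions and 3 lower, beside 7.45% and 7.62% of all genes. Against all 3 regions 1 was higher and 2 lower, beside 2.13% and 2.89% of all genes. The median difference was 0.91 against micropylar, 0.8 against peripheral and 1.93 against chalazal endosperm. Called higher were 1 member against micropylar, 4 against peripheral and 9 against chalazal endosperm. Of all tested probe sets, 5.67%, 4.27% and 9.26% were called higher in these comparisons, so the chalazal one called more in general. The chalazal region lay below the micropylar one in 6 members and below the peripheral one in 3, and above each in 1. AT5G44310, the member higher than all 3, had 46818 and 53480.0 in embryo, against 15757 and 19172 in micropylar, 13088 and 4968 in peripheral and 3991 and 2315 in chalazal endosperm (2.73 ± 0.32, limma adjusted p = 1.34e-05). LEA (AT2G21490) gave 46953 and 53319.8 in embryo, against 21118 and 15983 in micropylar, 26293 and 15823 in peripheral and 7297 and 3014 in chalazal endosperm (2.05 ± 0.39, limma adjusted p = 0.00133). On the other side COR47 (AT1G20440), a dehydrin of the cold response, gave 12.3 and 227 in embryo, against 2755 and 1589.5 in micropylar, 3920.2 and 1628 in peripheral and 416 and 444 in chalazal endosperm (-4.13 ± 0.71, limma adjusted p = 6.02e-04). The COR47 difference was -2.54 without embryo replicate 1 and -5.72 without replicate 2. AT1G47980 and AT4G38410 of the list were lower than all 3 regions, with differences of -6.71 ± 0.48 and -5.00 ± 0.50. AT1G47980 lay at 17.5 and 35.3 in embryo, against 9753 and 6057 in micropylar, 4021 and 2604 in peripheral and 1886 and 785 in chalazal endosperm. Without embryo replicate 1, 5 members were called higher than the mean, and 2 without replicate 2, and AT5G44310 then was not higher than all 3 regions in either case.

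Some photosynthesis genes were higher in the embryo than in the mean of the regions. Of 10 tested members 5 were called higher than the mean and 0 lower (median 0.91), beside 7.45% and 7.62% of all genes. None was called against all 3 regions, and 1 was with the 8 embryo and endosperm arrays alone. PSAN (AT5G64040), a subunit of photosystem I, gave 5727 and 5588 in embryo, against 1093 and 1467 in micropylar, 2230.3 and 2786 in peripheral and 3039 and 2524 in chalazal endosperm (1.46 ± 0.41, limma adjusted p = 0.0202). PRK (AT1G32060), phosphoribulokinase of the Calvin cycle, gave 20932 and 20166 in embryo, against 4444 and 6622 in micropylar, 7062 and 11656 in peripheral and 3679 and 6018 in chalazal endosperm (1.74 ± 0.56, limma adjusted p = 0.0431). The antenna protein LHCB4.2 (AT3G08940) had 3060.4 and 4130.1 in embryo and 717 to 2392 over endosperm (1.39 ± 0.41). Its relative LHCB4.1 (AT5G01530) did not pass the test, with 7043 and 9064 in embryo and 4237 to 7176 over endosperm (0.45 ± 0.27, limma adjusted p = 0.305). Without embryo replicate 1, and likewise without replicate 2, 0 of the 10 were called by limma, and 4 had an unadjusted p under 0.05 in each case. PSAN then differed by 1.44 and 1.48, and the median over the list was 0.92 and 0.89. Of 5 genes of chlorophyll synthesis 1 was higher than the mean, CHLM (AT4G25080), the methyltransferase of magnesium protoporphyrin (2709 and 2899 in embryo, 570.4 to 1379 over endosperm, 1.51 ± 0.32). Its adjusted p in limma was 0.0502 without embryo replicate 2.

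Several vacuolar and secreted proteases were low in the embryo. Of 12 tested members of the protease and cell death list, 6 were lower than all 3 regions and 8 lower than the mean, and 0 were higher than the mean (median -3.11). Among all genes 2.89% were lower than all 3 regions and 7.62% lower than the mean. Against chalazal endosperm alone 2 members were called higher. ALPHA-VPE (AT2G25940) is a vacuolar processing enzyme, a cysteine protease that cuts after asparagine. Its signal was 203 and 64.1 in embryo, against 5236 and 10756 in micropylar, 11680.5 and 14399.6 in peripheral and 9608 and 7061 in chalazal endosperm (-6.35 ± 0.40, 81.4-fold lower, limma adjusted p = 1.83e-08). DELTA-VPE (AT3G20210), known from dying cell layers of the seed coat, lay at 5.93 and 4.35 in embryo, against 535 and 749 in micropylar, 862 and 812 in peripheral and 2153 and 877 in chalazal endosperm, at least 36-fold lower (limma adjusted p = 1.16e-07). Its seed coat signals were 539.8 to 2102, within the range of the endosperm. GAMMA-VPE (AT4G32940), of vegetative tissues, was lower than the mean by less (-1.05 ± 0.28, limma adjusted p = 0.017). BETA-VPE (AT1G62710), which processes storage proteins in seeds, did not pass the test, with 21894 and 20099 in embryo, against 21068 and 25122 in micropylar, 24103 and 19042 in peripheral and 11338 and 8446 in chalazal endosperm (0.31 ± 0.26, limma adjusted p = 0.479). scpl48 (AT3G45010), a serine carboxypeptidase-like protein, gave 369 and 143 in embryo, against 19386 and 15630.4 in micropylar, 12919 and 21296 in peripheral and 23744 and 23181 in chalazal endosperm (-6.36 ± 0.31, limma adjusted p = 1.08e-09). The remaining 3 of the 6 were AT4G04460, AT4G01610 and AT4G18425. In each of the 17 alternative settings 6 members were lower than all 3 regions. The call of GAMMA-VPE was lost without embryo replicate 2 (limma adjusted p = 0.211).

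Some sugar transporters of the SWEET family were low in the embryo as well. SWEET proteins let sugars leave a cell, and some are known to pass sucrose towards the embryo in developing seeds. SWEET7 (AT4G10850) had the most negative difference of the genes lower than all 3 regions, -7.05 ± 0.33, at least 132-fold lower (limma adjusted p = 8.49e-10). Both embryo arrays were under the floor at 6.08 and 20.4, against 2683 and 2514 in micropylar, 2955 and 2499 in peripheral and 6911 and 3815 in chalazal endosperm. SWEET11 (AT3G48740), a sucrose exporter, gave 126 and 130.3 in embryo, against 862 and 2379 in micropylar, 5214 and 8040.4 in peripheral and 4648 and 6529.7 in chalazal endosperm (-4.86 ± 0.37, limma adjusted p = 1.16e-07). SAG29 (AT5G13170), also named SWEET15, gave 76.2 and 30.6 in embryo, against 391 and 537 in micropylar, 1284 and 2218 in peripheral and 1331 and 1435 in chalazal endosperm (-4.40 ± 0.36, limma adjusted p = 2.29e-07). For SWEET11 and SAG29 the lowest endosperm signals were those of the micropylar region. The chalazal minus micropylar difference was 1.94 for SWEET11 (limma adjusted p = 0.0131) and 1.59 for SAG29 (limma adjusted p = 0.0335). SAG29 had its highest signals in the seed coat, at 13994 and 15670.0. These 3 were the called members among 8 tested of the sugar and amino acid transport list, 3 lower than all 3 regions and 0 higher, beside 2.89% and 2.13% of all genes, and the list's median was -0.12.

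**Figure D3:**
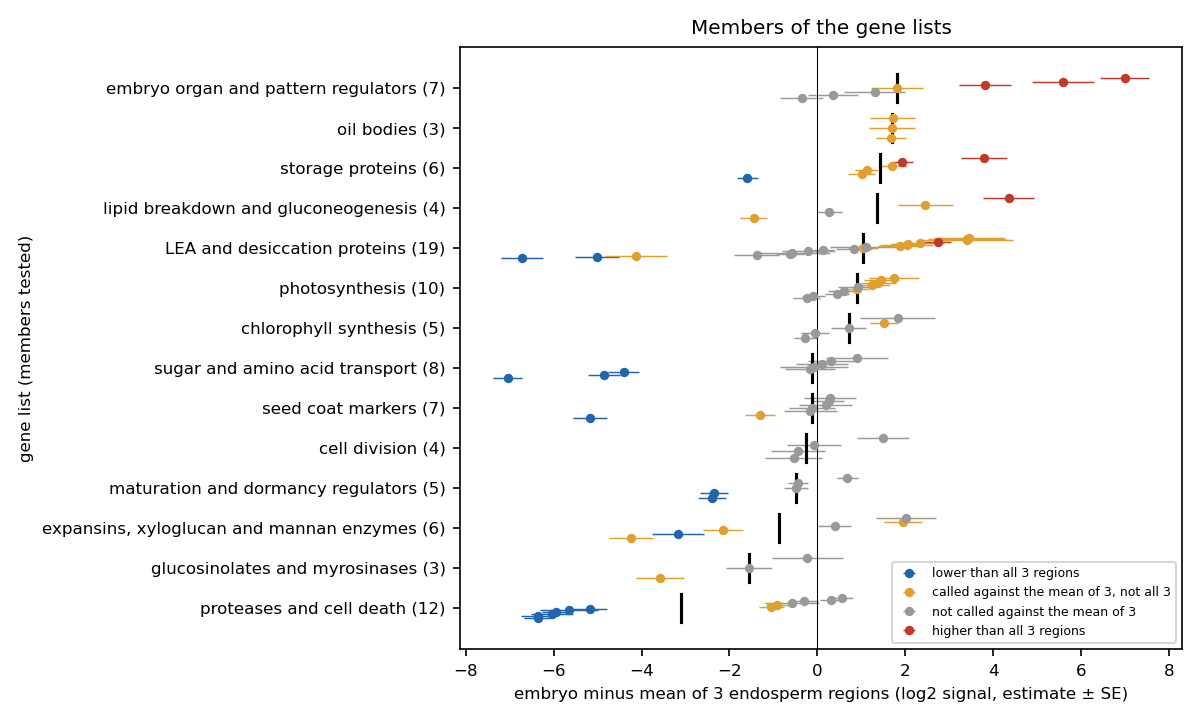
Each point is a tested list member, placed by its embryo minus endosperm mean difference (log2 signal, estimate ± SE). Black ticks mark list medians and colours the calls. The medians of organ regulators and oil body genes lie to the right of 0 and that of proteases to the left, while LEA and storage protein genes spread to both sides of 0.

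Wall-loosening and wall-remodelling genes went in both directions. Of 6 tested members in the list of expansins, xyloglucan and mannan enzymes, 1 was lower than all 3 regions, 3 were lower than the mean and 1 higher, beside 2.89%, 7.62% and 7.45% of all genes. GH9C1, GH9B8, EXLA1 and EXPB3 lie outside that list and were named because they have a symbol and a call. GH9C1 (AT1G48930), an endoglucanase, was under the floor in embryo, at 8.76 and 2.67, against 93.5 and 576 in micropylar, 1303 and 2941 in peripheral and 3072 and 5078 in chalazal endosperm (at least 48.6-fold lower, limma adjusted p = 7.43e-05). The micropylar arrays were the lowest of the endosperm and still above both embryo arrays. GH9B8 (AT2G32990), of the same enzyme family, gave 116 and 124 in embryo and 829.8 to 2503 over endosperm (-3.74 ± 0.70, limma adjusted p = 0.00129). Neither GH9 gene was called against all 3 regions with either embryo array left out, though both were called against the mean. EXLA1 (AT3G45970), an expansin-like protein, gave 279 and 67.8 in embryo, against 4254 and 5137 in micropylar, 5306 and 3885 in peripheral and 788 and 1275 in chalazal endosperm (-4.33 ± 0.41, limma adjusted p = 1.39e-06). The expansins EXPB3 (AT4G28250) and EXPA20 (AT4G38210, the list member lower than all 3), which loosen walls, differed by -3.44 ± 0.41 and -3.16 ± 0.59. Without embryo replicate 2 the EXPA20 difference was -1.96 and was not called (limma adjusted p = 0.063). XTH32 (AT2G36870), a xyloglucan endotransglucosylase, gave 64.5 and 66.3 in embryo, against 2399.6 and 2743 in micropylar, 3459.6 and 3714 in peripheral and 328 and 128 in chalazal endosperm (-4.24 ± 0.49). EXPA4 (AT2G39700) had 287 and 491 in embryo, against 13096 and 12267 in micropylar, 1899 and 1384 in peripheral and 147 and 343 in chalazal endosperm, so that embryo and chalazal endosperm overlapped. EXPA15 (AT2G03090), the member higher than the mean, gave 3939 and 4029.6 in embryo, against 2799 and 1763 in micropylar, 2886 and 2035 in peripheral and 329 and 126 in chalazal endosperm, and its difference rested on the chalazal region (4.29 there, 0.84 against micropylar endosperm). Without embryo replicate 1 neither EXPA4 nor EXPA15 was called (limma adjusted p = 0.0928 and 0.0617), and EXPA15 was not called without replicate 2 either (limma adjusted p = 0.0596).

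Further single genes lower than all 3 regions were named because they have a symbol, and they form no tested group. AMY1 (AT4G25000), a secreted alpha-amylase that degrades starch, gave 88.2 and 70.8 in embryo, against 947 and 1859 in micropylar, 1269.9 and 815 in peripheral and 494 and 406 in chalazal endosperm (-3.42 ± 0.40, limma adjusted p = 1.40e-05). ALN (AT4G04955), allantoinase of purine breakdown, gave 144 and 37.8 in embryo and 195 to 1097 over endosperm (-2.94 ± 0.44, limma adjusted p = 1.61e-04). ALN kept the call against all 3 regions in 11 of 17 alternative settings. The call was lost without embryo replicate 2, where the difference from the mean was -1.98. UGT84B1 (AT2G23260), which attaches glucose to auxin, was under the floor in embryo at 12.6 and 8.96, against 827 and 924 in micropylar, 1261 and 1519 in peripheral and 7951 and 4155 in chalazal endosperm (at least 76.3-fold lower, limma adjusted p = 3.23e-05). RTE1 (AT2G26070), which acts on the ethylene receptor ETR1, gave 753 and 827 in embryo and 3135 to 6585 over endosperm (-2.49 ± 0.31). ATG8B (AT4G04620), a ubiquitin-like protein of autophagosomes, gave 84.7 and 178 in embryo, against 1044 and 1220.2 in micropylar, 1391 and 1052 in peripheral and 956 and 906 in chalazal endosperm (-3.14 ± 0.34, limma adjusted p = 5.97e-06). It was the 1 gene called against all 3 regions among 8 tested ATG genes, beside 2.89% lower and 2.13% higher among all genes. EMS1 (AT5G07280), a receptor kinase known from anther development, gave 125 and 79.1 in embryo and 1323 to 2823 over endosperm (-4.24 ± 0.49, limma adjusted p = 1.26e-05).

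Among transcription factors of the maturation and dormancy list, 5 were tested, 2 were lower than all 3 regions and 0 higher, beside 2.89% and 2.13% of all genes. AGL18 (AT3G57390), a MADS-domain factor, gave 359 and 227 in embryo, against 866 and 888 in micropylar, 1407 and 2380.0 in peripheral and 1551 and 2832 in chalazal endosperm (-2.39 ± 0.32, limma adjusted p = 5.83e-05). bZIP44 (AT1G75390) gave 290.3 and 138 in embryo, against 485 and 478 in micropylar, 1778 and 2421 in peripheral and 932 and 1232 in chalazal endosperm (-2.35 ± 0.31, limma adjusted p = 5.32e-05), with a wider gap to peripheral (-3.37) than to micropylar endosperm (-1.26). Without embryo replicate 2, and likewise without either micropylar array, 0 of the list were lower than all 3 regions, although 2 members were called lower than the mean each time. EEL (AT2G41070), which acts on LEA genes late in maturation, had 42788 and 34481 in embryo and 20873 to 29301 over endosperm and did not pass the test (0.68 ± 0.23, limma adjusted p = 0.0586). BZIP53 (AT3G62420), an activator of maturation genes, did not pass it either (-0.43 ± 0.23, limma adjusted p = 0.229).

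SIM and BIN4, 2 genes known from endoreduplication, were picked after their values were seen and were called in opposite directions. SIM (AT5G04470), a kinase inhibitor that turns dividing cells to endoreduplication, gave 117 and 104 in embryo, against 5079 and 4645 in micropylar, 3421 and 3495 in peripheral and 1744 and 1212 in chalazal endosperm (-4.72 ± 0.30, 26.4-fold lower, limma adjusted p = 1.91e-08). BIN4 (AT5G24630), a part of the topoisomerase VI complex that endoreduplication also needs, was higher in embryo, with 3456 and 1785, against 635 and 599.6 in micropylar, 793 and 448 in peripheral and 434 and 743 in chalazal endosperm (2.07 ± 0.41, limma adjusted p = 0.00185). The BIN4 difference was 1.59 without embryo replicate 1 and was not called (limma adjusted p = 0.09). Of 4 tested cell division genes, 0 were called against the mean by limma, and 1 had an unadjusted p under 0.05. TOPII (AT3G23890), topoisomerase II, was among them (1.49 ± 0.59, limma adjusted p = 0.105).

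Relatives were called in opposite directions in 6 families, which were picked after the values were seen. LCR68 (AT2G02130) and LCR69 (AT2G02100) encode small cysteine-rich proteins of the plant defensin type and lie 3 positions apart in the RefSeq gene order (assembly TAIR10.1). LCR68 gave 13848 and 12277 in embryo, against 378 and 449 in micropylar, 1066 and 440.4 in peripheral and 183 and 159.7 in chalazal endosperm (5.16 ± 0.35, limma adjusted p = 3.72e-08). LCR69 gave 11383 and 15385 in embryo, against 70954 and 72872 in micropylar, 73068 and 67558 in peripheral and 79539 and 76564 in chalazal endosperm (-2.47 ± 0.31, limma adjusted p = 2.76e-05). CYP71B37 (AT3G26330) and CYP71B34 (AT3G26300), cytochromes P450, also lie 3 positions apart. CYP71B37 gave 1181 and 1969.7 in embryo and 9.57 to 276 over endosperm (3.79 ± 0.62). CYP71B34 gave 152 and 176 in embryo and 606 to 1542 over endosperm (-2.79 ± 0.52). Among beta-glucosidases, BGLU40 (AT1G26560) was higher at 1745 and 951 in embryo and 2.98 to 81.1 over endosperm (4.78 ± 0.55), and BGLU15 (AT2G44450) lower at 339 and 97.3 in embryo and 3009 to 5302 over endosperm (-4.52 ± 0.41). Of 10 BGLU genes tested 2 were higher and 1 lower than all 3 regions, beside 2.13% and 2.89% of all genes, and 2 were higher and 4 lower than the mean.

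In the serine carboxypeptidase-like family, of which 13 were tested, scpl46 (AT2G33530) was higher (462 and 455 in embryo, 16.1 to 98.7 over endosperm) beside the lower scpl48. Among the IQD proteins, which bind calmodulin, IQD22 (AT4G23060) was higher (254 and 235 in embryo, 1.44 to 49 over endosperm, 3.05 ± 0.62) and IQD28 (AT1G14380) lower (643 and 666 in embryo, 4218 to 6301 over endosperm, -2.98 ± 0.24). They were the 2 called against all 3 regions among 12 tested IQD genes. Among all genes 2.13% were higher and 2.89% lower than all 3 regions. The subtilisin-like protease SBT1.3 (AT5G51750) was higher at 831 and 459.7 in embryo and 2.97 to 131 over endosperm (3.73 ± 0.70), and its relative SBTI1.1 (AT1G01900) lower at 192 and 7.84 in embryo and 1271 to 7811 over endosperm (-5.66 ± 0.67). The call of IQD22 against the mean was lost when no floor was used. With either embryo array left out, CYP71B37, scpl46, SBT1.3 and IQD22 were no longer called against all 3 regions, and CYP71B34 was not without replicate 1. In both cases 2 of the 6 pairs, those of LCR and BGLU genes, were still called against all 3 regions in opposite directions.

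**Figure D4:**
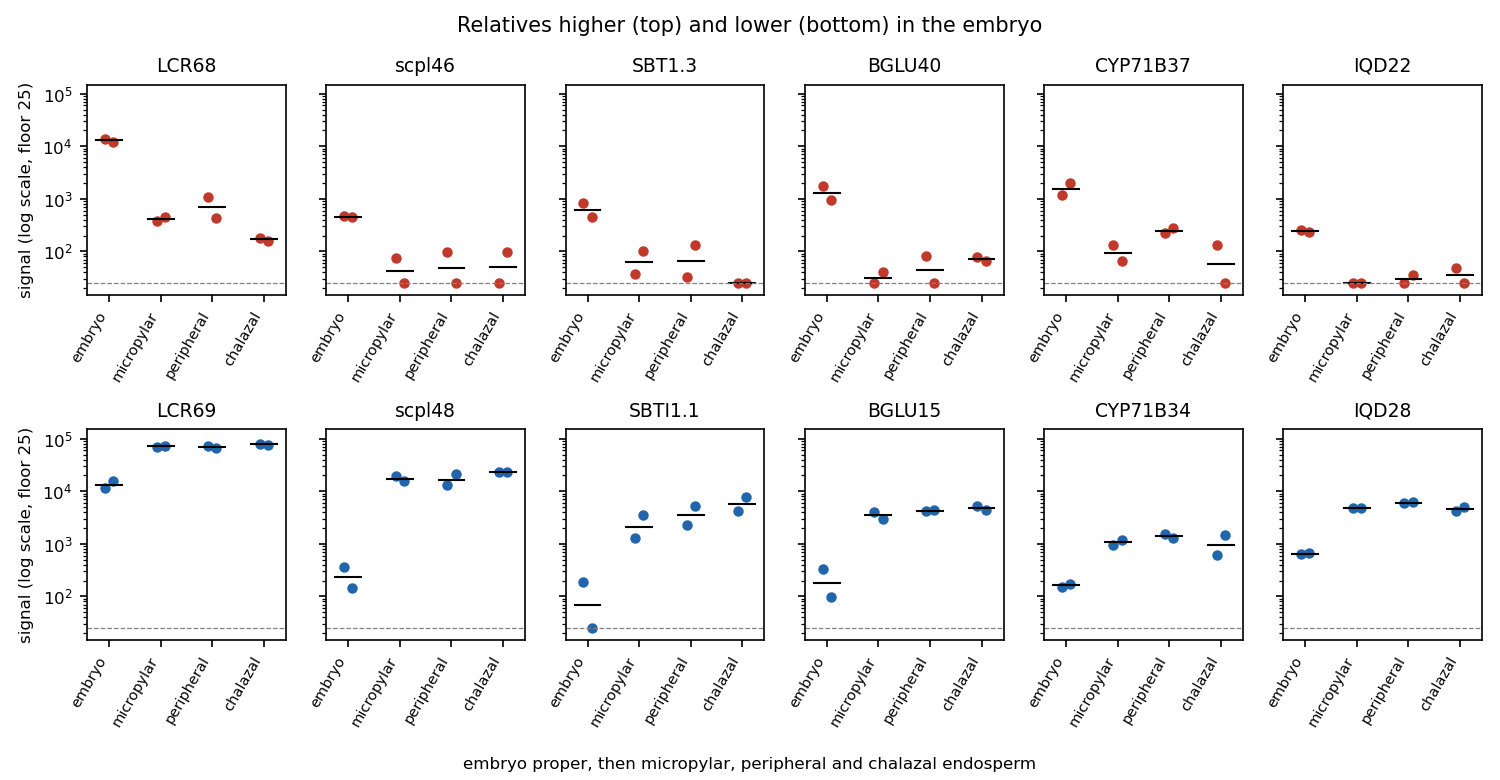
Signals (log scale, values under 25 drawn at 25) of 6 pairs of relatives in embryo and in micropylar, peripheral and chalazal endosperm, left to right. Points are arrays and bars the mean of log2 values. Each top gene is highest in embryo and each bottom gene lowest there, and levels of different genes are not comparable.

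Among the lower genes, some were named by their endosperm signal, which ranks probe sets and not transcripts. AT5G38170 gave 11776 and 9039 in embryo, against 95507 and 115494 in micropylar, 98588 and 106234 in peripheral and 92089 and 108726 in chalazal endosperm (-3.31 ± 0.26, limma adjusted p = 1.60e-07). AT5G38160, its direct neighbour in the RefSeq gene order, behaved alike (16554 and 5759 in embryo, 72151 to 88437 over endosperm), and shared hybridisation between the 2 was not tested. AT1G14950 had 1196 and 1431 in embryo, against 65256 and 61149 in micropylar, 65402 and 57340.3 in peripheral and 45927 and 8875 in chalazal endosperm (-5.03 ± 0.73), and without chalazal endosperm replicate 1 it was no longer called against all 3 regions. Of the called genes, 8 pairs were direct neighbours on the chromosome, 7 of them called in the same direction. Within 5 positions, direct neighbours included, there were 35 pairs, 12 of them called in opposite directions. Neighbours among all tested genes were not counted, so an excess of such pairs was not tested. GIS (AT3G58070), a zinc finger factor of trichome formation, and AT3G58060 were 1 of the direct neighbour pairs, both higher in embryo. GIS, with 168 and 145 in embryo and 4.27 to 21 over endosperm, was not called with either embryo array left out (limma adjusted p = 0.099 and 0.065). AT1G10640, which was higher, and AT1G10650, which was lower, formed the direct neighbour pair of opposite direction.

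Whole seeds and seed coats entered the filter and the estimate of the variance but not the contrasts that chose the genes. With the 8 embryo and endosperm arrays alone, 360 probe sets were higher and 476 lower than all 3 regions, of which 293 and 411 were shared with the calls above. The mean of the whole seed arrays lay between embryo and endosperm mean for 129 of the 164 higher genes (78.7%) and for 203 of the 223 lower genes (91%), against 36.7% of all tested genes. A wide gap between embryo and endosperm makes this more likely. On a scale from 0 at the endosperm mean to 1 at the embryo, the median position of whole seeds was 0.73 over the higher genes and 0.47 over the lower genes. The embryo exceeded both seed coat groups by a log2 difference of at least 1 in 133 of the 164 higher genes. It lay below both by at least that much in 141 of the 223 lower genes. The seed coat counts were not made over all tested genes, so they do not show whether the called genes stand out. A signal is a share of the RNA of a capture, so fewer cells with a transcript and less transcript per cell cannot be told apart.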

How the data were processed

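Laser-captured compartments and whole seeds were measured on 14 arrays in the 7 groups of 2 that the labels give. The authors deposited 1 linear-scale intensity per probe set and array, made with GCOS per the submitters' processing notes. Its version and its algorithm for the signal are not given there. All arrays had nearly the same trimmed mean (499.8), so no further scaling was applied. Intensities under 25 were set to 25, and log2 was taken. Without 64 controls, 14257 of 22746 probe sets were tested, those with both arrays of at least 1 group above the array's median. The platform table and RefSeq (TAIR10.1) gave 1 gene for 7827 tested probe sets, several for 298 and none for 6132. Where a gene had several, the probe set of highest mean log2 intensity stood for it.

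In limma 3.58.1 (R 4.3.3), all 14 arrays entered 1 fit with a mean for each group, 7 residual degrees of freedom and variances moderated along an intensity trend. The embryo was compared with each endosperm region and with their mean, which share the embryo arrays. The script was tested on simulated data. Precision is limited by the 2 arrays per group.

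The genes, the 21 lists and the tests were chosen with earlier results of these data known. Of 566 list loci 143 were measured and 105 tested, and the lists for raffinose and abscisic acid had 0 measured. Named were the 12 largest and 12 smallest differences, the 6 strongest signals of each direction, 6 genes between the regions, and members of the lists. Genes with a symbol were added after the values were seen. The alternatives were other floors, filters, scalings and variance models, a replicate block, and each of the 8 arrays left out. Sequences were not used here.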

Additional observations from a re-analysis of the deposited data

Results flagged for a closer look

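For 6 genes the embryo lay between the endosperm regions, called higher than at least 1 region and lower than at least 1 other, and the difference between those regions was called by the same model. With an embryo array left out, 5 of the 6 lost at least 1 of these calls, and AT3G43960 kept both in each case. The 6 were among 10 such genes (0.13%) and showed the widest gaps between regions. AT1G54410 was high in chalazal endosperm, with a chalazal minus peripheral difference of 5.94 on the log2 scale. AT5G38400 was higher in chalazal than in micropylar endosperm by 7.95. The other genes were low in chalazal endosperm. The chalazal minus micropylar difference was -5.95 for AT2G38010, -6.98 for AT5G62350, -6.78 for AT3G43960 and -6.07 for AT5G45920. The signals of AT1G54410 were 6125 and 2284 in embryo, against 1184 and 2081 in micropylar, 1472 and 1349 in peripheral and 110619 and 67589 in chalazal endosperm. Those of AT5G62350 were 781 and 211 in embryo, against 7826 and 8464 in micropylar, 1060.2 and 588 in peripheral and 11.3 and 167 in chalazal endosperm. The embryo minus peripheral difference of AT1G54410 without embryo replicate 1 was 0.70 (limma adjusted p = 0.448), and the embryo minus chalazal difference of AT5G62350 was then 1.71 (limma adjusted p = 0.335). For AT5G38400 the difference from micropylar endosperm had an adjusted p in limma of 0.135 without replicate 1 and 0.159 without replicate 2. That from chalazal endosperm reached 0.0949 for AT2G38010 without replicate 2 and 0.078 for AT5G45920 without replicate 1.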

How the results depend on the processing

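With 2 arrays per group the counts of calls rested on single arrays. With 1 array left out at a time, in which case the lone array is assumed to vary like the other groups, 1200 to 2339 probe sets were called against the mean of 3 regions, 963 to 1706 against micropylar, 718 to 1388 against peripheral and 1550 to 2540 against chalazal endosperm. Higher than all 3 regions were 135 to 304, lower than all 3 316 to 397, and between regions 6 to 17. The share of calls that were higher in embryo than the mean fell to 40.9% without embryo replicate 1 and 41.4% without replicate 2, against 48% with all arrays. The number higher than all 3 was 559 with a floor of 100, 222 with no filter and 191 with no floor. The number between regions was 11 with no filter and 32 with the 8 embryo and endosperm arrays alone. Higher and lower counts against all 3 were 356 and 459 with a replicate block, in which 329 and 440 calls were shared with the fit without the block, and the block ended 1 of the 146 calls among 158 differences of single genes, that of AT4G21020 (limma adjusted p = 0.0502). Differences between replicates correlated at -0.0618 to 0.0975 between groups, so no shared shift by replicate number was seen. Whether captures of the same number shared seeds cannot be told from this, since no plant or seed is named. Of the 146 calls, 33 were lost without embryo replicate 1 and 30 without replicate 2, and 20 with no filter. No single gene changed direction in the 17 alternatives.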

Other observations

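Of 1064 tested genes with a symbol other than the locus, 29 were higher and 36 lower in the embryo than in all 3 endosperm regions. Among all genes 2.13% were higher and 2.89% lower. Genes with a symbol not described above included proteins of the cytoskeleton. WLIM1 (AT1G10200), which bundles actin filaments, gave 2281 and 1334 in embryo and 171 to 393 over endosperm (2.93 ± 0.46, limma adjusted p = 2.57e-04). NET4B (AT2G30500), an actin-binding protein, gave 19913 and 21982 in embryo and 2296 to 8387 over endosperm (2.14 ± 0.37). NET4B kept the call against all 3 regions in 9 of 17 alternative settings and lost it with either embryo array left out. WLIM1 lost that call without embryo replicate 1. TUA6 (AT4G14960), an alpha-tubulin, gave 613 and 1683 in embryo and 2629.7 to 3863 over endosperm (-1.65 ± 0.32), and its difference was -0.92 without embryo replicate 1 (limma adjusted p = 0.105). MT1C (AT1G07610), a metallothionein, which binds metals, gave 21.2 and 127 in embryo and 223 to 5809 over endosperm (-5.12 ± 0.96), and its difference was -3.95 without embryo replicate 1 (limma adjusted p = 0.0693). GTR2 (AT5G62680), a glucosinolate transporter, had 34 and 37.4 in embryo, against 228 and 72.9 in micropylar, 329.9 and 396 in peripheral and 2086 and 1337 in chalazal endosperm. It was lower than the mean (-3.58 ± 0.54, limma adjusted p = 2.04e-04) but not called lower than all 3 regions. Its relative GTR1 (AT3G47960) did not pass the test (-1.55 ± 0.53, limma adjusted p = 0.0564). GSO1 (AT4G20140), a receptor kinase needed for the embryo cuticle, gave 879.7 and 612 in embryo and 51.6 to 201 over endosperm (2.59 ± 0.61, limma adjusted p = 0.00718). It was not called against peripheral endosperm (limma adjusted p = 0.0866), and so not against all 3 regions. Without embryo replicate 1 its difference from the mean was 2.33 and was not called.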
